A study of Mus musculus with 24 samples.

Results

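The 14 libraries described here are all those of Ts65Dn mice among 24 libraries. They were chosen by genotype and divided by the measured level of the RNA Bc1, as 7 Bc1-rich libraries above 1000 CPM (counts scaled to a common library total) and 7 Bc1-poor libraries at or below it. Bc1 is a short noncoding RNA of rodents, made by RNA polymerase III, carried into dendrites and known as a repressor of translation. Small nucleolar RNAs (snoRNAs) guide chemical modification of ribosomal and spliceosomal RNAs. Most of them are cut from introns of host genes, many of which code for ribosomal proteins, and box C/D snoRNAs are recognised by a pair of short motifs near their ends.

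Each library came from 1 male mouse aged about 6 months. About 500 neurons stained for choline acetyltransferase were cut out by laser from the medial septum and the diagonal band's vertical limb, and total RNA was sequenced. Ts65Dn mice model Down syndrome and carry a segment of extra chromosome with triplicated genes of chromosome 16, and their disomic littermates are called 2N. The line is kept on a mixed background, by mating Ts65Dn females to F1 males of C57Bl/6J Eicher and C3H/HeSnJ. The chow of their dams held 5.0 g/kg choline chloride (supplemented, 8 Ts65Dn and 4 2N libraries) or 1.1 g/kg (control diet, 6 Ts65Dn and 6 2N libraries), and all offspring ate the control chow after weaning. The labels do not give the litter, so animals were treated as independent and p-values leave the shared dam out of account.

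The classes were cut from a measured value, so p-values below describe what went with Bc1 in these libraries and not the effect of any treatment. The Bc1-rich class held supplemented Ts65Dn 1, 3, 4, 6, 7 and 8 and control-diet Ts65Dn 3. The Bc1-poor class held supplemented Ts65Dn 2 and 5 and control-diet Ts65Dn 1, 2, 4, 5 and 6. Supplementation was thus found in 6 of 7 Bc1-rich and 2 of 7 Bc1-poor libraries (Fisher's exact test, two-sided p = 0.103).

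The labels and the deposited series table place these animals differently. The 7 Bc1-rich libraries stood side by side in that table, in columns 13 to 19. Supplemented Ts65Dn 2 and 5 stood in columns 2 and 4, among the supplemented 2N libraries, and the other Bc1-poor libraries in columns 20 to 24. The design text gives 6 mice per group, whereas the labels give 8 supplemented Ts65Dn and 4 supplemented 2N. Groups follow the labels here. A dosage index, the median over 63 triplicated genes of centred log2 CPM, was 0.11 and 0.32 in supplemented Ts65Dn 2 and 5, against -0.50 to -0.30 in the 4 supplemented 2N libraries. It ran from -0.08 to 0.28 in Bc1-rich and from 0.05 to 0.32 in Bc1-poor libraries, against -0.50 to 0.13 in all 10 2N libraries.

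The RNAs that carry the difference are short. They are shown here as GENCODE M21 transcript sequences, 5′ to 3′, written as DNA. In Bc1 (chromosome 7, 168 bases) the capitals mark the longest run of A, 23 bases, which lies between the structured 5′ part and the unique 3′ part. In Snord15b (chromosome 7, 145 bases) and Snord21 (chromosome 5, 94 bases), the named snoRNAs with the smallest p-values of this comparison, the capitals mark TGATGA, the core of box C, and the last CTGA, box D.
Bc1: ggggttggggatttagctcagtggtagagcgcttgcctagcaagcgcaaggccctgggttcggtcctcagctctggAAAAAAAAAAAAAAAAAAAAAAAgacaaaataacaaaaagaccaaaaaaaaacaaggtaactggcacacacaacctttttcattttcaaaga
Snord15b: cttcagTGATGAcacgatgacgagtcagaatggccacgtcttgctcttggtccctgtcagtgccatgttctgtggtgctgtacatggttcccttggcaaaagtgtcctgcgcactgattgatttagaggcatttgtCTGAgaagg
Snord21: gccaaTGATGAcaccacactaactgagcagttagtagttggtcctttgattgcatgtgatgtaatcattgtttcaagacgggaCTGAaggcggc
Of 1507 snoRNA transcripts in M21, 24.0% hold TGATGA followed by CTGA on their own strand and 0.133% on the opposite strand. The match is a description of these letters only.

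Bc1 ran from 2565 to 13655 CPM in Bc1-rich libraries, with a median of 4020. It ran from 17.5 to 108 CPM in Bc1-poor libraries, with a median of 54.7. The library just above the threshold was supplemented Ts65Dn 6 at 2565 CPM, and the one just below it was control-diet Ts65Dn 6 at 108 CPM, so no library lay near the threshold. All 10 2N libraries, which the rule did not use, held 8.21 to 42.8 CPM. Per length, Bc1 was at 14845 to 82053 TPM (counts scaled by gene length and library) in Bc1-rich libraries, where Malat1, an abundant nuclear long noncoding RNA, was at 1125 to 2044 TPM. In Bc1-poor libraries Bc1 was at 179 to 895 TPM and Malat1 at 1195 to 2739 TPM, so by TPM the order of these RNAs was reversed between the classes. In CPM, which is not scaled by length, Bc1 exceeded Malat1 in control-diet Ts65Dn 3 alone (13655 against 12173 CPM).

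**Figure D1:**
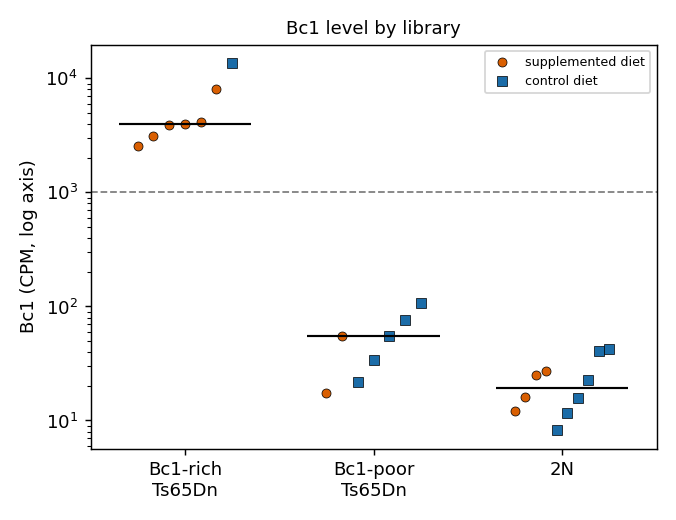
Bc1 level of each library in CPM on a log axis, for Bc1-rich Ts65Dn, Bc1-poor Ts65Dn and 2N libraries. Circles are supplemented and squares control-diet animals, horizontal bars are medians and the dashed line is the threshold of 1000 CPM. The Bc1-rich libraries sit at 2565 CPM or more, and all others at 108 CPM or less.

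Several other measures of the libraries moved with the class. The labels do not say whether the Bc1-rich libraries were prepared, trimmed or counted apart from the others, and the part of such steps in any class difference was not tested. The mitochondrial rRNAs took 33.7% ± 4.79 of counts in Bc1-rich libraries and 18.7% ± 4.10 in Bc1-poor libraries (SD, n = 7 each; exact permutation test, two-sided p = 0.000583, adjusted p = 0.00117 over 6 measures). The ranges were 29.0% to 43.3% in Bc1-rich and 13.5% to 24.1% in Bc1-poor libraries, so the classes did not overlap, and 2N libraries held 18.1% to 25.8%. SnoRNAs named Snord, Snora or Scarna took 0.318% to 0.616% of counts in Bc1-rich libraries, 0.0194% to 0.117% in Bc1-poor libraries and 0.00963% to 0.0684% in 2N libraries, with the same p-values. The classes again stood apart.

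The 10 most abundant genes other than Bc1 took 35.2% to 48.8% of counts in Bc1-rich libraries, 22.1% to 31.5% in Bc1-poor libraries and 24.1% to 32.1% in 2N libraries, also with an exact permutation p of 0.000583. This is the smallest p that the 3432 splits of 14 libraries allow. Total counts were 4688258 to 11255859 in Bc1-rich libraries and 8283898 to 11626586 in Bc1-poor libraries, and the means differed at an exact permutation p of 0.0390 (adjusted p = 0.0586). That total-count p rose above 0.05 when any one of 8 libraries was left out. Genes detected numbered 13102 to 22593 in Bc1-rich and 13833 to 20621 in Bc1-poor libraries (exact permutation adjusted p = 0.616). Control-diet Ts65Dn 3 and supplemented Ts65Dn 7, the libraries with the most Bc1, had the fewest genes detected, 13102 and 13141.

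Chat codes for the enzyme stained for capture. Its level was 0 to 9.80 CPM in Bc1-rich libraries, with a median of 3.75, and 0.604 to 61.9 CPM in Bc1-poor libraries, with a median of 17.4. It was 0.590 to 63.2 CPM in 2N libraries. All 7 Bc1-rich libraries were below 10 CPM and the sole library at 0 was the Bc1-rich control-diet Ts65Dn 3, but the ranges overlapped because 2 control-diet Bc1-poor libraries were below 1 CPM. The log2 difference of class means was -2.01 (exact permutation adjusted p = 0.129). Within diets it was -3.91 on the supplemented and -3.66 on the control diet, and permuting the class within diets gave an exact p of 0.00595, the smallest that the 168 such splits allow. In the fit across all genes Chat differed by -3.99 ± 1.33 (log2, SE; edgeR adjusted p = 0.207), so Chat passed 0.05 under the permutation within diets and not under the other 2 tests. In bulk RNA of this kind, fewer cells of a type and less RNA per cell cannot be told apart.

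**Figure D2:**
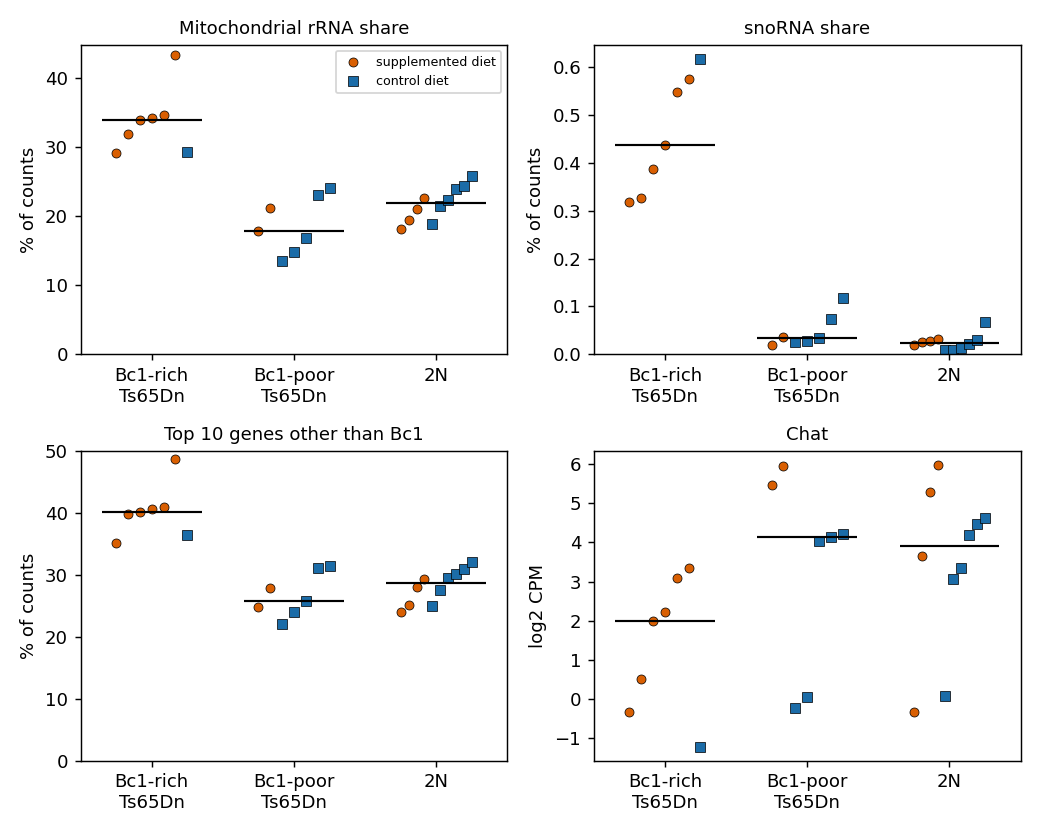
Share of counts from mitochondrial rRNAs, from snoRNAs and from the 10 most abundant genes other than Bc1, and log2 CPM of Chat, for each library. Symbols are as in the plot of Bc1 level and bars are medians. The 3 shares of Bc1-rich libraries lie above all others, whereas the Chat values of the classes overlap.

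Genes were compared between the classes with edgeR's quasi-likelihood test, with diet as a second term, and Bc1 itself was not tested. Of 14046 other genes, 140 were higher in Bc1-rich libraries (0.997% of those tested) and 27 were lower (0.192%) at a Benjamini-Hochberg adjusted p under 0.05, or 1.19% in either direction. SnoRNAs, 39 of the 140, were the largest annotated class among the higher genes, and 90 of the 140 were shorter than 200 bases. Ribosomal protein genes were 7 of the 27 lower genes. The higher genes comprised 39 snoRNAs, 55 identifiers that M21 does not hold, 26 protein-coding genes, 7 processed pseudogenes and 13 of other classes. Of the 27 lower genes 20 were protein coding, as were 11982 of the 14046 tested.

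All 7 Bc1-rich libraries lay above all 7 Bc1-poor ones in 89 of the 140 higher genes, as they did in 0.947% of all genes tested, and below them in 18 of the 27 lower genes, against 0.634%. In 85 of the 140 higher genes all 7 Bc1-rich libraries lay above all Bc1-poor and all 2N libraries, as did 0.840% of all genes tested. In 14 of the 27 lower genes they lay below all others, against 0.242% of all genes tested. Among the higher genes, 17 fell into 6 sets with identical counts in every Ts65Dn library, so near-identical copies were counted more than once. Control-diet Ts65Dn 3 is the lone Bc1-rich library on its diet, and without it 79 genes were higher and 13 lower. The mitochondrial rRNA share does not overlap between the classes and cannot be told apart from Bc1. With that share in the fit, 40 genes were higher and 6 lower. The titles carry an animal number whose prefix, 14 to 17, the labels do not explain. With this prefix as a factor 85 genes were higher and 8 lower, and 11 of the 34 called named genes lost their call, Apoe (edgeR adjusted p = 0.119), Mir8114 (0.0958), Rpl26 (0.160), Vsnl1 (0.283), Chn2 (0.126), Pls3 (0.466), Kif5b (0.284), Gfap (0.166), Bsn (0.250), Kcnh3 (0.148) and Lars2 (0.469).

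SnoRNAs showed the largest differences among the named genes. Snord15b had 1804 to 3261 CPM in Bc1-rich libraries, with a median of 2100, against 0 to 51.2 CPM in Bc1-poor libraries, with a median of 4.87. It held 0 to 28.1 CPM in 2N libraries. Every Bc1-rich library was far above every other library, and the fitted difference was 12.13 ± 1.08 (log2, SE; edgeR adjusted p = 5.06e-09).

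Snord21 had 160 to 691 CPM in Bc1-rich libraries, with a median of 363, against 0 to 16.1 CPM in Bc1-poor libraries, with a median of 0.243. Its 2N libraries held 0 to 11.7 CPM. It too was separated without overlap, by 9.93 ± 1.05 (log2, SE; edgeR adjusted p = 2.21e-07). Snord15a, which lies with Snord15b in the gene Rps3, had 132 to 229 CPM in Bc1-rich libraries and 0 to 22.9 CPM in Bc1-poor libraries, a log2 difference of 6.53 ± 0.75 (edgeR adjusted p = 8.86e-07).

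The fitted sizes depend on supplemented Ts65Dn 2 and 5, which had no counts of Snord15b or Snord21. For Snord21 the log2 difference was 14.58 on the supplemented and 7.35 on the control diet, 14.76 without control-diet Ts65Dn 3, and 6.53 without supplemented Ts65Dn 2 and 5 and the diet term. For Snord15b the last was 7.33. In that last fit all Bc1-poor libraries are on the control diet, so it can hardly tell class from diet.

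Snora7a, a box H/ACA snoRNA within the ribosomal protein gene Rpl32, was at 12.5 to 72.4 CPM in Bc1-rich libraries and had no counts in any Bc1-poor library. Set against a floor of 3 counts per library, it was at least 103-fold higher. Snhg3, the host gene of Snora73a, named here after its value was seen, was at 1.76 to 38.6 CPM in Bc1-rich libraries and also had no counts in Bc1-poor libraries, at least 52.7-fold higher by the same floor.

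The other named snoRNAs were Snora23, Snord22, Snora21, Snord55 and Snord68, with edgeR adjusted p-values of 1.57e-05 to 0.000103. In each of them every Bc1-rich library exceeded every Bc1-poor and 2N library. Their log2 differences ran from 3.55 for Snora23 to 7.35 for Snord68. Without control-diet Ts65Dn 3, adjusted p was 0.0631 for Snora23 and 0.243 for Snord68.

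Of 113 listed snoRNAs and Cajal body RNAs, 62 passed the filter on low counts. A member near 0 in Bc1-poor libraries could pass through the Bc1-rich ones, so counts and medians of signs describe the tested members and support nothing further. Summed over all 113, the list stood at 3176 to 6163 CPM in Bc1-rich libraries, 194 to 1173 CPM in Bc1-poor libraries and 96.3 to 684 CPM in 2N libraries. Of the 62 tested members 23 rose and none fell (edgeR adjusted p under 0.05). Their median log2 difference was 5.10, or 5.07 with the 3 members at 0 in Bc1-poor libraries set to their lower bound, beside -0.02 over all genes tested. By the annotated class, 125 snoRNAs were tested and 39 rose.

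Some other short noncoding RNAs rose too. Rpph1, the RNA subunit of RNase P, had 205 to 3410 CPM in Bc1-rich libraries, with a median of 1149, and 41.5 to 219 CPM in Bc1-poor libraries, with a median of 87.6. In 6 of 7 Bc1-rich libraries it was above every Bc1-poor library, and the difference was 3.98 ± 0.46 (log2, SE; edgeR adjusted p = 8.76e-07). It had 17.1 to 224 CPM in 2N libraries. Rpph1 overlaps Ccnb1ip1 on the same strand, so some reads could fit both.

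Rmrp, the RNA of RNase MRP, given here for the tested one of 2 identifiers with that symbol, had 201 to 325 CPM in Bc1-rich libraries, against 8.37 to 133 CPM in Bc1-poor libraries and 0 to 40.9 CPM in 2N libraries. Its classes did not overlap (log2 difference 2.56 ± 0.46, edgeR adjusted p = 0.00121). The Y RNAs Rny3 and Rny1, partners of the Ro protein, differed by 3.29 ± 0.47 and 3.04 ± 0.62 (log2, SE; edgeR adjusted p = 4.14e-05 and 0.00547), with no overlap between classes. Without control-diet Ts65Dn 3 their adjusted p-values were 0.145 and 0.521. Of 10 tested members of the list of other small noncoding RNAs, 4 rose and none fell. Mir6236, a fixed member of that list, had a median of 621 CPM in Bc1-rich and 1938 CPM in Bc1-poor libraries and was not called (log2 difference -0.93 ± 0.37, edgeR adjusted p = 0.338).

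Short genes took a larger share of counts in the Bc1-rich class. All genes under 200 bases other than Bc1, whether tested or not, took 1.11% to 2.24% of counts in Bc1-rich libraries, 0.368% to 0.860% in Bc1-poor libraries and 0.217% to 0.603% in 2N libraries. Of 6862 such genes 261 passed the filter, which short RNAs low in Bc1-poor libraries could pass through the Bc1-rich ones. Among these 261, 90 rose and 3 fell, and the median log2 difference was 5.07, or 4.89 with genes at 0 in one class set to their bound. Among 13785 longer genes, 50 rose and 24 fell, and the median was -0.04. Genes of 200 to 500 bases had a median of 0.08, close to that of all genes. Not every short class was higher, since of 16 tested mitochondrial tRNAs none was called (median 0.88), and of 5 tested microRNA genes none rose and 1 fell (median -0.93). Of the 132 tested identifiers not in M21, 103 were shorter than 200 bases. This split was chosen after the values were seen, and no test was made of it.

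**Figure D3:**
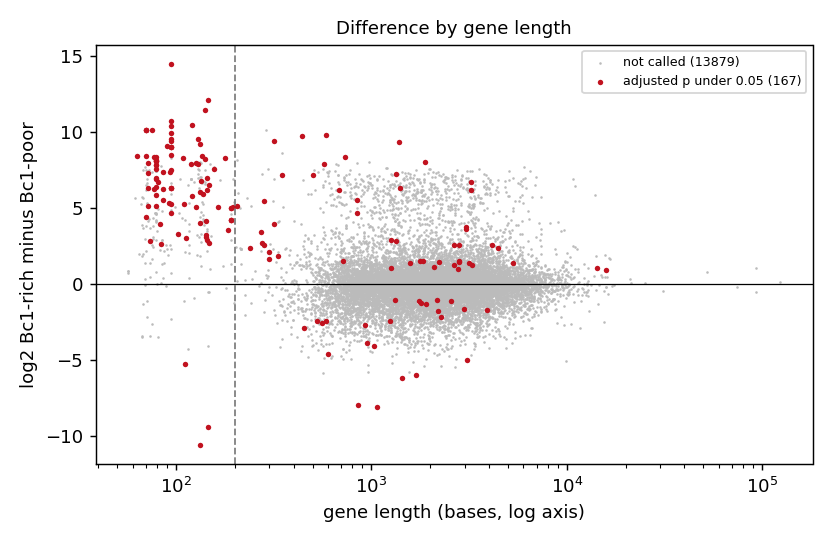
Log2 difference between Bc1-rich and Bc1-poor libraries against gene length in bases (log axis) for 14046 genes, with the 167 called genes in red. The dashed line marks 200 bases. Most points left of it lie above 0, and the 13785 longer genes centre on 0.

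Rps3 and Rpl5, the ribosomal protein genes that host Snord15a, Snord15b and Snord21, went the other way. Rps3, which codes for a protein of the small ribosomal subunit, had 11.8 to 51.9 CPM in Bc1-rich libraries, with a median of 42.0, against 444 to 2259 CPM in Bc1-poor libraries, with a median of 1004. It had 125 to 1303 CPM in 2N libraries. No Bc1-rich library came near any other, and the difference was -5.00 ± 0.43 (log2, SE; edgeR adjusted p = 2.78e-09).

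Rpl5, a protein of the large subunit and host of Snord21, had 2.77 to 16.2 CPM in Bc1-rich libraries, with a median of 11.3, against 79.2 to 679 CPM in Bc1-poor libraries, with a median of 201. It had 21.7 to 195 CPM in 2N libraries. Again the classes did not overlap (log2 difference -4.07 ± 0.57, edgeR adjusted p = 3.27e-05). Of the counts of Rps3, Snord15a and Snord15b together, the snoRNAs took at least 97.4% in every Bc1-rich library and at most 4.44% in any Bc1-poor library. Of the counts of Rpl5 and Snord21 together, Snord21 took at least 91.1% in Bc1-rich and at most 7.43% in Bc1-poor libraries.

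The sum of host and guests overlapped between the classes. For Rps3 with its guests it was 1975 to 3444 CPM in Bc1-rich libraries and 447 to 2333 CPM in Bc1-poor libraries, but all Bc1-rich values lay above the 131 to 1309 CPM of 2N libraries. For Rpl5 with Snord21 it was 171 to 693 CPM in Bc1-rich libraries and 79.2 to 682 CPM in Bc1-poor libraries, beside 22.4 to 198 CPM in 2N libraries.

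**Figure D4:**
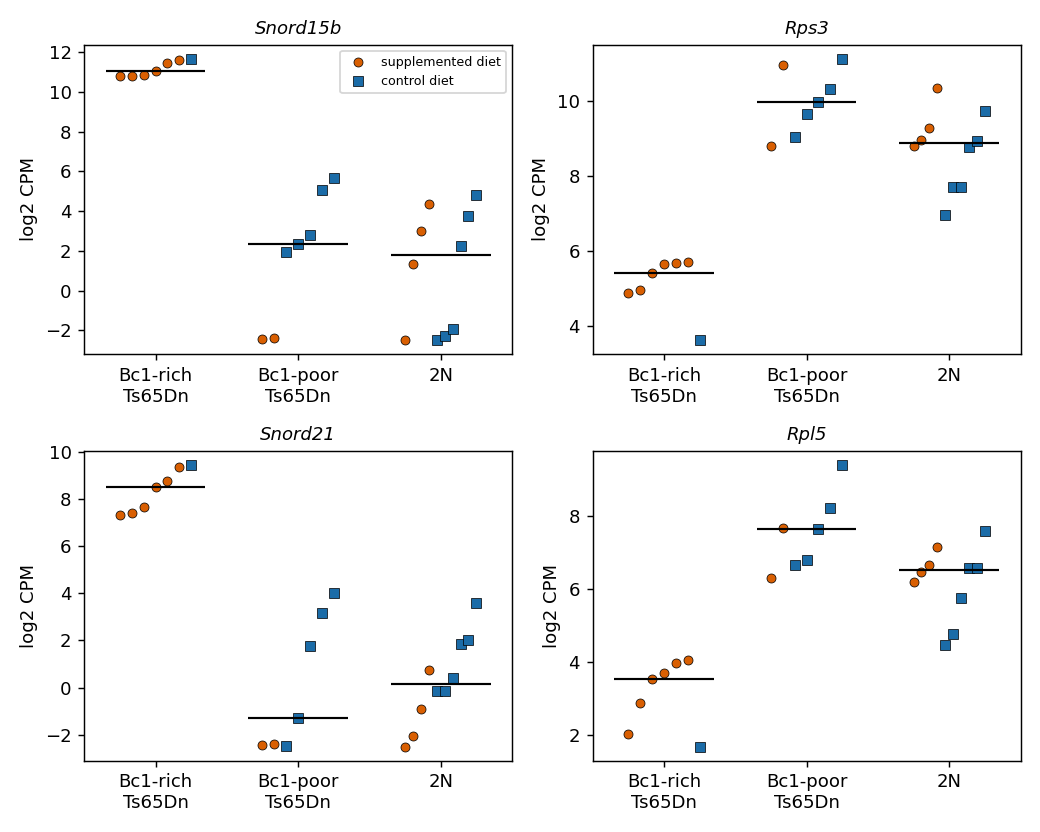
Log2 CPM (prior count of 2) of the snoRNAs Snord15b and Snord21 and of their host genes Rps3 and Rpl5 in each library. Symbols are as in the plot of Bc1 level and bars are medians. In Bc1-rich libraries both snoRNAs lie above, and both hosts below, all Bc1-poor and 2N libraries.

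The annotation places some snoRNAs within an exon of a host transcript that retains the intron. Snord15b lies in an exon of an Rps3 model of 3183 bases and Snord21 in an exon of an Rpl5 model of 1024 bases, whereas Snord15a lies between exons of every Rps3 model. The deposited files give each gene's length as a mean over its transcripts weighted by their estimated shares. For Rps3 it was 716 to 2886 bases in Bc1-rich libraries, with a median of 1079, against 3044 to 3176 bases in Bc1-poor and 2990 to 3161 bases in 2N libraries. The Bc1-poor and 2N values lay close to the length of that Rps3 model. The other host did not share this shift, as Rpl5 had 815 to 1706 bases in Bc1-rich libraries (median 1028), against 996 to 1080 bases in Bc1-poor libraries (median 1036). The deposited counts are estimates that divide reads fitting several transcripts, so reads lying both in a snoRNA and in a host exon could be given to either gene. How much of the host difference this makes was not tested.

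The lean was not shared by all hosts. In all, 117 tested snoRNAs or Cajal body RNAs lay within 86 tested host genes on the same strand. Of 30 hosts with a guest inside an exon, 3 fell, none rose and 23 were negative, with a median log2 difference of -1.15. Of 56 hosts whose guests all lay in introns, none fell, 1 rose and 25 were negative, with a median of 0.11. This split was also made after the values were seen.

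Of 81 tested ribosomal protein genes 7 fell and none rose, and 60 were negative, with a median of -0.91 beside -0.02 over all genes. The 20 that host a tested snoRNA had a median of -1.29, with 3 called lower. The other 61 had a median of -0.77, with 4 called lower. Rpl32, the host of Snora7a, was not called (log2 difference -0.35, edgeR adjusted p = 0.963). Besides Rps3 and Rpl5, the named members were Rpl26 and Rpl23a, with log2 differences of -2.40 ± 0.51 and -2.57 ± 0.57 (SE; edgeR adjusted p = 0.00894 and 0.0126). Without control-diet Ts65Dn 3 their adjusted p-values were 0.0971 and 0.102. Nuclear genes of oxidative phosphorylation had a similar median of -0.77, and none of 89 was called.

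The weighted length separated other genes too. It varied between libraries for 11461 tested genes, and in 60 of them (0.524%) the classes did not overlap, 25 longer (0.218%) and 35 shorter (0.305%) in Bc1-rich libraries. Lars2, the mitochondrial leucyl-tRNA synthetase, had a weighted length of 3750 to 3757 bases in Bc1-rich libraries, against 1092 to 1305 bases in Bc1-poor and 1101 to 1798 bases in 2N libraries. Its level was 4620 to 11816 CPM in Bc1-rich libraries, 3138 to 8284 CPM in Bc1-poor libraries and 369 to 4361 CPM in 2N libraries, and it rose by 1.09 ± 0.26 (log2, SE; edgeR adjusted p = 0.0229, or 0.226 without control-diet Ts65Dn 3).

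Apoe, the main lipid carrier made by astrocytes, had a weighted length of 632 to 854 bases in Bc1-rich libraries, against 992 to 1366 bases in Bc1-poor libraries. Mbp, a major myelin protein, had 933 to 1405 bases in Bc1-rich libraries, against 1547 to 1988 bases in Bc1-poor libraries. Srrm2, a splicing factor of nuclear speckles, went the other way, with 5452 to 8600 bases in Bc1-rich and 1963 to 3347 bases in Bc1-poor libraries. Lars2, Mbp and Srrm2 were picked after their lengths were seen, as was Apoe for this measure.

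Among genes that are no snoRNA hosts, Tatdn1, a putative DNase, fell most among the named genes. It had 2.57 to 180 CPM in Bc1-rich libraries, with a median of 120, against 8089 to 19057 CPM in Bc1-poor libraries, with a median of 11260. In 2N libraries it had 2520 to 11334 CPM. All Bc1-rich libraries were far below all others, and the difference was -6.20 ± 0.56 (log2, SE; edgeR adjusted p = 6.20e-09). Its weighted length was 1414 to 1436 bases in Bc1-rich and 1427 bases in all Bc1-poor libraries, so it did not move with the class as that of Rps3 did.

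Gm37376, an unnamed model on the strand opposite Malat1 and named here after its value was seen, had 60.5 to 635 CPM in Bc1-rich libraries, with a median of 293. It had 1609 to 5797 CPM in Bc1-poor libraries, with a median of 3674, and 2139 to 4847 CPM in 2N libraries. It fell by 2.90 ± 0.40 on the log2 scale (edgeR adjusted p = 1.91e-05). Its counts were 0.531% to 5.09% of those of Malat1 in Bc1-rich libraries and 20.1% to 39.5% in Bc1-poor libraries, while Malat1 itself overlapped between classes and was not called (log2 difference 0.47 ± 0.22, edgeR adjusted p = 0.494). The kit keeps strand, but the strand setting of the counting is not given in the sources used here, so reads of Gm37376 and Malat1 cannot be told apart with certainty. Over 421 genes whose opposite-strand neighbours held more than 10 times their counts, 1 rose and none fell, with a median log2 difference of 0.08. Gm37376, which fell, was not among these 421 genes, so their count cannot decide how its own reads were assigned.

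Apoe had 850 to 1391 CPM in Bc1-rich libraries, with a median of 1097, and 1542 to 3722 CPM in Bc1-poor libraries, with a median of 2919. It was lower in all 7 Bc1-rich libraries than in any Bc1-poor or 2N library. The log2 difference was -1.06 ± 0.22 (SE; edgeR adjusted p = 0.00531). Apoe was the called member that fell among 15 tested astrocyte markers.

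The remaining named genes that fell were the neuronal calcium sensor Vsnl1, the kinesin heavy chain Kif5b, the Rac regulator Chn2, the actin bundler Pls3 and the microRNA gene Mir8114. Their log2 differences were -1.28 for Vsnl1, -1.08 for Kif5b, -2.46 for Chn2, -1.79 for Pls3 and -5.26 for Mir8114, with edgeR adjusted p-values of 0.001 to 0.0135. Vsnl1 had 63.4 to 162 CPM in Bc1-rich libraries and 249 to 377 CPM in Bc1-poor libraries, without overlap. Mir8114 overlaps the start of Glul on the same strand, so reads of Glul could count for it. Without control-diet Ts65Dn 3 the adjusted p was 0.0655 for Vsnl1, 0.139 for Kif5b and 0.0973 for Chn2.

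mt-Rnr2, the large mitochondrial rRNA, had 236290 to 373539 CPM in Bc1-rich libraries and 101653 to 172208 CPM in Bc1-poor libraries, without overlap, and rose by 1.39 ± 0.21 (log2, SE; edgeR adjusted p = 0.000107). mt-Rnr1, the small one, had 19555 to 63721 CPM in Bc1-rich libraries and 17547 to 68493 CPM in Bc1-poor libraries and was not called (log2 difference 0.10 ± 0.34, edgeR adjusted p = 0.975). Of 10 tested mitochondrial mRNAs none was called, with a median log2 difference of 0.43.

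Vwf, a glycoprotein of endothelial cells, had 54.8 to 234 CPM in Bc1-rich libraries, against 13.0 to 78.7 CPM in Bc1-poor libraries, and 6 of 7 Bc1-rich libraries exceeded all Bc1-poor ones. It rose by 2.39 ± 0.42 (log2, SE; edgeR adjusted p = 0.000834), as the one called of 12 vessel markers. Gfap, the intermediate filament of astrocytes, had a median of 45.3 CPM in Bc1-rich and 20.2 CPM in Bc1-poor libraries, with overlapping ranges, and was called (2.57 ± 0.63, log2, SE; edgeR adjusted p = 0.0293). Without control-diet Ts65Dn 3 the adjusted p was 0.376 for Vwf and 0.388 for Gfap.

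**Figure D5:**
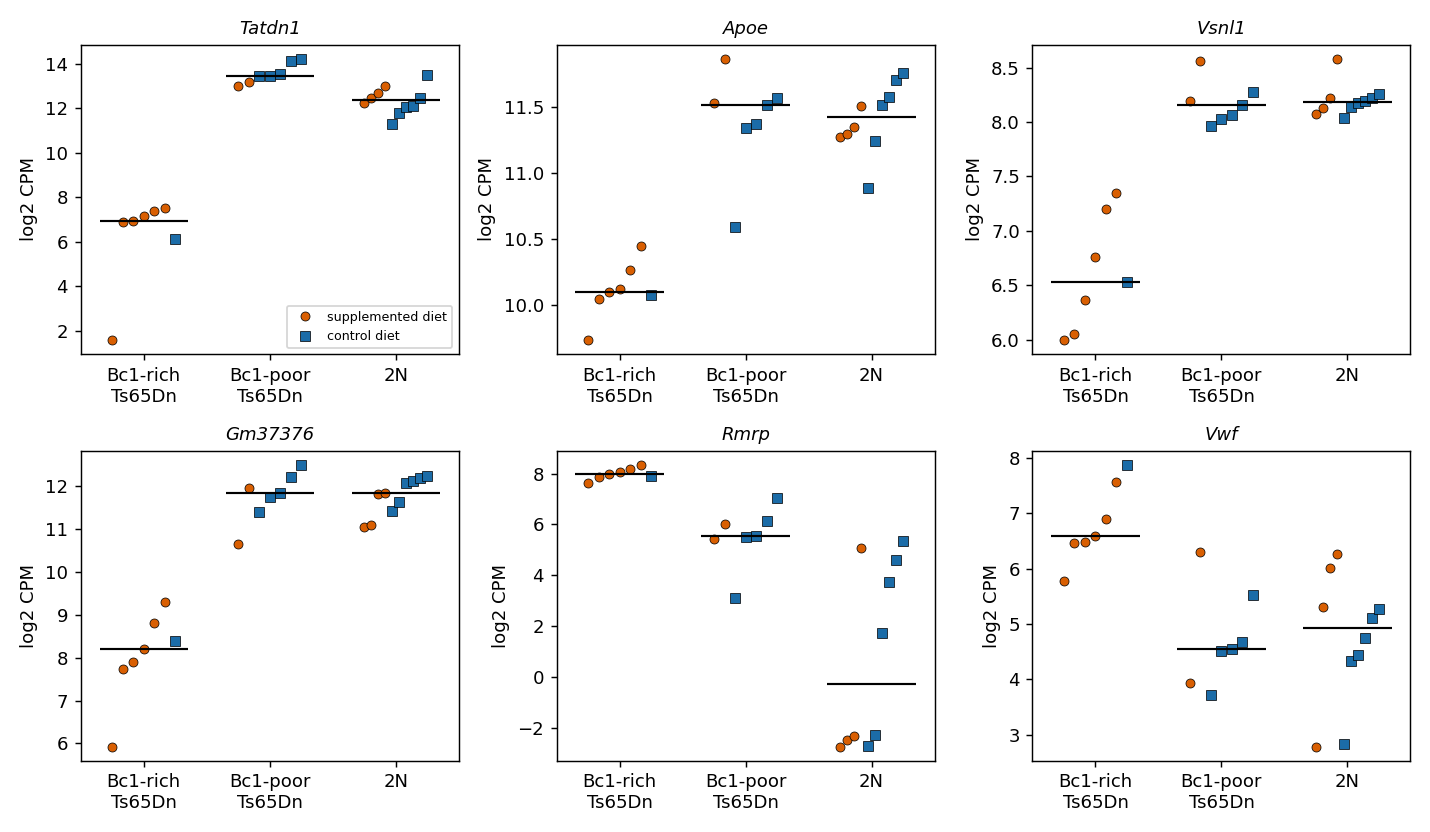
Log2 CPM (prior count of 2) of Tatdn1, Apoe, Vsnl1, Gm37376, Rmrp and Vwf in each library, with symbols as in the plot of Bc1 level and medians as bars. The first 4 are lower and Rmrp is higher in every Bc1-rich library than in any Bc1-poor one. For Vwf, 1 of the 7 Bc1-rich libraries lies within the Bc1-poor range.

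No marker of cholinergic neurons was called. With diet in the fit, all 14 tested members had negative log2 differences, with a median of -1.24 beside -0.02 over all genes, and none was called. Their summed level was 10.5 to 455 CPM in Bc1-rich libraries, 124 to 679 CPM in Bc1-poor libraries and 300.3 to 771 CPM in 2N libraries. Slc18a3, the vesicular acetylcholine transporter, and Slc5a7, the choline transporter, had 0 to 15.6 CPM and 0 to 29.9 CPM in Bc1-rich libraries, and 0 to 21.3 CPM and 0 to 30.6 CPM in Bc1-poor libraries. The sign rests on the libraries and terms of the fit. Without supplemented Ts65Dn 2 and 5 and the diet term, the log2 differences were 2.58 for Slc18a3, 1.18 for Slc5a7, 0.88 for Ngfr and 0.65 for Chrm2, but -1.13 for Chat. All Bc1-poor libraries are then on the control diet, and all Bc1-rich ones but control-diet Ts65Dn 3 are supplemented. That fit can hardly tell class from diet. The median CPM of Slc18a3, Slc5a7, Ngfr and Chrm2 was higher in Bc1-rich than in Bc1-poor libraries, such as 8.62 against 2.29 for Slc18a3 and 38.6 against 28.5 for Ngfr. Of 13 markers of neurons in general, 12 were negative, with a median of -0.49.

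Markers of other cells were present in both classes. Summed astrocyte markers were at 3301 to 4013 CPM in Bc1-rich libraries, 4586 to 6791 CPM in Bc1-poor libraries and 5369 to 6843 CPM in 2N libraries, with 1 member risen and 1 fallen of 15. Summed oligodendrocyte markers were at 759 to 3531 CPM in Bc1-rich and 1946 to 4484 CPM in Bc1-poor libraries. Markers of GABAergic and striatal neurons, oligodendrocyte precursors, microglia, blood and ependyma had no called member. Before scaling between libraries, the median difference in log2 CPM over all genes was -0.31, so CPM sums and ranges lean lower in Bc1-rich libraries than the fitted differences do. The part of these cells in the gene differences was not tested.

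Bc1 is known for acting on the translation of dendritic mRNAs with partners such as Fmr1 and Eif4a1. Of 28 tested dendritically localised mRNAs none was called, and the median log2 difference was 0.35. Their summed level had a lower median in Bc1-rich libraries, 9349 against 13122 CPM. Camk2a, a kinase of the postsynaptic density, had a median of 183 CPM in Bc1-rich libraries and 525 CPM in Bc1-poor libraries and differed by 0.55 ± 0.43 (log2, SE; edgeR adjusted p = 0.796). Its medians thus go against the sign of the fit, which holds the diet term. Control-diet Ts65Dn 3, the lone Bc1-rich library on its diet, had 2247 CPM of Camk2a. What set the sign was not tested. Map2, a dendritic microtubule protein, had 832 to 1192 CPM in Bc1-rich libraries and 1557 to 2050 CPM in Bc1-poor libraries without overlap, but its fitted difference of -0.49 ± 0.19 was not called (log2, SE; edgeR adjusted p = 0.327). Of 17 tested proteins that bind Bc1 or act on translation with it, none was called, with a median of -0.21. Eif4a1, the helicase of translation initiation, had the smallest p among them (-1.46 ± 0.43, log2, SE; edgeR adjusted p = 0.111), and its weighted length was 621 to 1144 bases in Bc1-rich libraries, against 1246 to 3167 bases in Bc1-poor libraries.

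Other neuronal lists held few calls. None of 22 immediate early genes, 24 glutamate receptor genes, 18 long noncoding RNAs or 63 triplicated genes of chromosome 16 was called, with median log2 differences of 0.83, -0.17, -0.41 and -0.13. The summed immediate early genes went against their fitted sign, with a median of 215 CPM in Bc1-rich and 450 CPM in Bc1-poor libraries. App, a triplicated gene, differed by -0.13 ± 0.20 (log2, SE; edgeR adjusted p = 0.932). Of 25 synaptic vesicle and release genes, Bsn, a scaffold of the active zone, was called (0.92 ± 0.23, log2, SE; edgeR adjusted p = 0.0427, or 0.473 without control-diet Ts65Dn 3). Of 22 neurofilament and microtubule genes, Kif5b was called. Of 23 forebrain projection neuron genes, the potassium channel Kcnh3 was called (6.70 ± 1.73, log2, SE; edgeR adjusted p = 0.0484), at 2.87 to 116 CPM in Bc1-rich and 0 to 60.4 CPM in Bc1-poor libraries. Its ranges overlapped.

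Markers of glutamatergic neurons also had no called member of 7, but 1 library stood out. Their summed level was 122 to 3448 CPM in Bc1-rich libraries, with a median of 235, and 216 to 1772 CPM in Bc1-poor libraries, with a median of 567. The highest value was that of control-diet Ts65Dn 3, which had 2247 CPM of Camk2a and 1595 CPM of Nptxr, the neuronal pentraxin receptor. This library bears on the diet term of the same fit.

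With the Bc1 class in the fit, supplemented Ts65Dn libraries differed from control-diet ones in 33 lower genes (0.235% of those tested) and 1 higher gene (0.00712%). Nptxr had 45.6 to 88.1 CPM in the 8 supplemented libraries, with a median of 70.5, against 92.6 to 1595 CPM in the 6 control-diet libraries, with a median of 440. The groups did not overlap, and the difference was -3.22 ± 0.38 (log2, SE; edgeR adjusted p = 3.84e-05). Of the 34 genes, 11 belong to the list of forebrain projection neuron genes, which was drawn up with earlier results of these libraries known. Without control-diet Ts65Dn 3, 1 gene was higher (0.00664%) and 3 lower (0.0199%), of which 1 was among the 34, and Nptxr differed by -2.34 (log2; edgeR adjusted p = 0.280). Without the class term 2 genes were higher (0.0142%) and 4 lower (0.0285%). Without supplemented Ts65Dn 2 and 5, 80 were higher (0.611%) and 52 lower (0.397%), but all Bc1-poor libraries are then on the control diet, so that the diet term rests on control-diet Ts65Dn 3 alone against 6 supplemented Bc1-rich libraries.

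The comparison was also made within each diet, on the same libraries that chose the 140 and 27 genes, so shared calls are no independent support. On the supplemented diet alone, 6 Bc1-rich against 2 Bc1-poor libraries, 111 genes were higher and 9 lower, and 83 and 8 of them were among the 140 and 27. On the control diet alone, 1 against 5 libraries, 45 were higher and 53 lower, of which 35 and 11 were among them. The lone Bc1-rich library of that comparison is assumed to vary like the others. An interaction of class and diet was called for 12 genes (0.0854%), all of them with a more positive class difference on the supplemented diet. Snord15b was the one among them that was also higher by class (9.81 ± 1.90, log2, SE; edgeR adjusted p = 0.0354), and both supplemented Bc1-poor libraries held no count of it, so that size is not a bound.

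Bc1 also varied among the 10 2N libraries, over 2.38 units on the log2 scale, all within or below the Bc1-poor range. With log2 Bc1 as a covariate, none of 15503 genes was called (edgeR, 0% of those tested), and 573 had an unadjusted p under 0.05. The same count of 0 was found with DESeq2 size factors. Of the 140 genes higher in Bc1-rich libraries 68 could be tested in 2N libraries, and 45 of these had a positive slope. Of the 27 lower genes 26 could be tested, and 15 had a positive slope. The share of positive slopes over all 15503 genes was not worked out, so neither count is read as a result.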

How the data were processed

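Laser-captured neurons of 24 mice gave 1 RNA-seq library each, made with a stranded total RNA kit. Per the submitters' processing notes, Trimmomatic 0.39, STAR and RSEM were used; for STAR and RSEM no version is stated. GRCm39 and mm10 are both named without a role, so no coordinates are given. The expected counts deposited by the authors are RSEM estimates per gene and were rounded to whole numbers for the tests. The TPM values deposited by the authors are scaled by gene length and depth, and the deposited gene lengths are means over transcripts in bases. No molecular identifiers were used. Totals ran from 4688258 to 13443438 counts, and 0 columns belonged to other samples.

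Groups follow the labels, which give 8, 6, 4 and 6 libraries, although 6 mice each were planned per the design text. CPM is the expected count over the library total, scaled to a fixed sum. Genes passing filterByExpr (minimum count 10) were scaled by TMM and fitted with diet and Bc1 class on the 14 Ts65Dn libraries (edgeR 4.0.16, quasi-likelihood, R 4.3.3), with Benjamini-Hochberg adjustment over all genes. limma 3.58.1 and DESeq2 1.42.0 were alternatives. The 6 library measures were compared by two-sided exact permutation (SciPy 1.17.1), adjusted over the 6. In simulated data the fit called 35% of 100 genes changed 4-fold and 66% of 100 genes changed 16-fold, with 0% false calls. A gene that was not called can therefore still differ. Named genes were, in each direction, the 12 called genes with the smallest p that have a symbol and are neither unnamed models nor pseudogenes. Added to these were up to 4 called members of each of the 12 marker and 15 gene lists, or else the 2 of smallest p, with 15 genes taken whatever their values. Gm37376, Snhg3 and Nell2 were named outside this rule, after their values were seen. Hosts and gene classes come from GENCODE M21. The classes, members and lists were chosen with earlier results of these data known. P-values measure the spread between animals and leave litter out of account. Alternatives left out libraries or changed filter, scaling, tool and terms.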

Additional observations from a re-analysis of the deposited data

Results flagged for a closer look

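In 10 of 80 groups of values the highest or lowest library lay farther from its neighbours than Dixon's 95% limit, which chance alone gives in about 1 in 20 groups. Among Bc1-rich libraries, supplemented Ts65Dn 7 stood high in the mitochondrial rRNA share, at 43.3%, and in the share of the 10 most abundant genes, at 48.8%. Control-diet Ts65Dn 3 stood low for Rps3, at 3.61 log2 CPM, and high for Bsn, at 10.73 log2 CPM. Supplemented Ts65Dn 6 stood low for Tatdn1, at 1.57 log2 CPM.

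Among Bc1-poor libraries, Snord15a stood low in supplemented Ts65Dn 5, at -2.44 log2 CPM, and Rny3 stood low in control-diet Ts65Dn 5, at 0.71 log2 CPM. Snord68 stood high in supplemented Ts65Dn 2, at 0.89 log2 CPM. Control-diet Ts65Dn 6 stood low for Apoe, at 10.59 log2 CPM, and for Rmrp, at 3.11 log2 CPM.

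The class difference of Snord15b was larger on the supplemented than on the control diet, by 9.81 on the log2 scale (edgeR interaction, adjusted p = 0.0354). The fitted values were 17.41 on the supplemented and 7.70 on the control diet. Both supplemented Bc1-poor libraries had no counts of Snord15b, so the size of the first value depends on the prior count.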

How the results depend on the processing

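Against 140 higher and 27 lower genes, DESeq2's Wald test called 746 and 186, no filter on low counts 241 and 64, the control diet alone 45 and 53, and the ID prefix as a factor 85 and 8. With the mitochondrial rRNA share as a covariate there were 40 and 6, and without control-diet Ts65Dn 3 and supplemented Ts65Dn 7 there were 70 and 12. Lower genes numbered 9 on the supplemented diet alone, 69 with all 24 libraries in the fit and 106 without supplemented Ts65Dn 2 and 5, an alternative chosen after seeing the data. Leaving out 1 library at a time gave 79 to 151 higher and 12 to 31 lower genes; the 79 came without control-diet Ts65Dn 3 and the 12 without supplemented Ts65Dn 5. Of 34 called named genes, 8 kept their call in every alternative (Gm37376, Rpph1, Rps3, Snora7a, Snord15a, Snord15b, Snord21 and Tatdn1). Without supplemented Ts65Dn 2 and 5 and control-diet Ts65Dn 3, and with no diet term, 133 of the 139 higher genes tested kept their sign. Kcnh3 at -0.52 and Nell2, named after its values were seen, at -0.66 on the log2 scale were among those that did not. Nptxr, not called by class, was at -2.03. All Bc1-rich libraries left are then supplemented and all Bc1-poor ones are on the control diet. Class and diet cannot be told apart in this fit, and the cause of the sign changes was not tested. On the supplemented diet alone, 6 against 2 libraries with few possible splits, total counts differed by -2925380 (two-sided exact permutation p = 0.429). The differences were 15.0 percentage points for mitochondrial rRNA, 0.404 for snoRNAs and 14.6 for the 10 most abundant genes (exact permutation p = 0.0714 for each). On the control diet alone they were -4503 for genes detected and 0.560 percentage points for snoRNAs. The total-count difference ran from -3465270 to -2370670 with 1 library left out. The Chat difference ran from -2.61 to -1.57 with 1 library left out, and permuting within diets left it at -2.01 with an exact p of 0.00595. The diet term called 34 genes, against 4 without control-diet Ts65Dn 3, 132 without supplemented Ts65Dn 2 and 5 and 6 without the class term. No paired analysis was possible because the replicate numbers follow accession order; the unexplained ID prefix of the titles was fitted as a factor instead.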
